A study of Mus musculus with 6 samples.

Results

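Sptb, Ank1, Epb41, Epb42, Slc4a1, Gypc, Rhag and Kel encode proteins of the membrane skeleton and surface of the red cell. These 8 genes were taken by symbol from the 20097 mouse genes listed in each library, and all 8 were among the 15410 that passed the filter on low values. They were measured by poly-A RNA sequencing of c-Kit+ bone marrow cells, the marrow fraction that carries the receptor of stem cell factor and is rich in blood stem and progenitor cells. The groups were 3 libraries of genotype WT and 3 of genotype Runx1 KO, a knockout of the gene of a blood transcription factor, called WT-labelled and KO-labelled libraries below. The labels give no strain, age, sex or treatment, and they do not name the allele, promoter or Cre behind the knockout. They do not say whether the 3 samples of a group came from separate animals, so the p-values measure the spread between these samples, which may be technical.

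A red cell is held in shape by a lattice of spectrin beneath the lipid bilayer, cross-linked by short actin filaments. The lattice is tied to the bilayer at ankyrin complexes, built around the anion exchanger and the Rh proteins, and at junctional complexes, which hold protein of the Epb41 gene and glycophorin C. Inherited loss of several of these proteins gives spherocytosis or elliptocytosis, and several of the surface proteins carry blood group antigens. Several of the genes are switched on during erythroid differentiation, and GATA1, KLF1 and TAL1 are known regulators of that programme.

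The libraries held between 23297526 and 26793380 reads in listed genes, and a floor of 3 reads was worth between 2.88 and 3.14 normalised reads. A normalised read count is a gene's read count divided by a size factor for its library. Kit itself ran from 7979 to 8471 normalised reads in the WT-labelled libraries and from 11507 to 13684 in the KO-labelled libraries. Runx1, the targeted gene, went against its label: it averaged 3109 ± 356 normalised reads (SD, n = 3) in the WT-labelled libraries and 6399 ± 494 in the KO-labelled libraries. A gene-level value does not show which exons its reads came from. Of all tested genes 3370 passed the threshold, an adjusted p under 0.05 from limma, which was 21.9% of them, with 10.6% higher and 11.3% lower in the KO-labelled libraries.

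The sequence upstream of 3 of these genes is shown because they hold the letters that GATA factors are known to bind and because Rhag and Kel ran close together over the libraries. Rhag ran closer still to Ank1, and a link between matches and levels was not tested. Each run is the 250 bases before the start that RefSeq gives the gene on GRCm38.p6, 5′ to 3′ on the strand of the gene, with each GATAA or GATAG that follows A or T, on either strand, in capitals. The Epb42 run is chr2:121036878-121037127 on the minus strand, the Rhag run is chr17:40810899-40811148 on the plus strand, and the Kel run is chr6:41704326-41704575 on the minus strand. The gene models of GENCODE M21, whose positions are given for each gene, start farther upstream, and 195 bases of the Epb42 run, 23 of the Rhag run and 14 of the Kel run lie inside them.
Epb42: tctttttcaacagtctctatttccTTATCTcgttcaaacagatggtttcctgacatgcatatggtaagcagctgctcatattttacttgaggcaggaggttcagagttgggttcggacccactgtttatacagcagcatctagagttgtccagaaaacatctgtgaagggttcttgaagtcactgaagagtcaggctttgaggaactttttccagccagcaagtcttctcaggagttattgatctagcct
Rhag: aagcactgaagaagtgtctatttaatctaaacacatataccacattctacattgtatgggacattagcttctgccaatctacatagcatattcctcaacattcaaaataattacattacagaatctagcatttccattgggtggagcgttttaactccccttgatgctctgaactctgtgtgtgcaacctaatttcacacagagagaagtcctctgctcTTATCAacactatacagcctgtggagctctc
Kel: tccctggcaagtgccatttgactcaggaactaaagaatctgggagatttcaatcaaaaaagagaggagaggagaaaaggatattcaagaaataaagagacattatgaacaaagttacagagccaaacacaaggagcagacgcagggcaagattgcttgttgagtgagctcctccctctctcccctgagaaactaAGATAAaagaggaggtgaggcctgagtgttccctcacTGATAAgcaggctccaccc
The Kel run holds 2 matches, AGATAA from 56 to 51 and TGATAA from 19 to 14 bases before the start. The Rhag run holds 1, as TTATCA from 31 to 26 bases before the start, and the Epb42 run holds 1, as TTATCT from 226 to 221. Of the other members, the table held Sptb, with no match in its window, and Epb41, with 1 match in 1 of its 3 windows. Over all 32851 windows of this length in the table, 26.5% held at least 1 such match. Letters bound by RUNX factors, TGTGGT or TGCGGT on either strand, stood in 1 of the 7 windows of these genes, that of Rhag, as ACCACA from 212 to 207 bases before the start. They stood in 18.6% of all windows. The KLF letters CCNCNCCC occurred 3 times before Sptb, with 2 of the matches overlapping. They occurred 3 times in 1 Epb41 window and 6 times in another, where 5 of the 6 overlapped another match. The rest of the 7 windows held no KLF match. Over all windows, 45.9% held at least 1, which is a share of windows and not a number of matches. A match is a run of letters, and binding was not measured here.

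Of the 8 genes, Slc4a1 fell and Gypc rose, and 6 did not pass the threshold. Slc4a1, the anion exchanger of the red cell, averaged 4.01-fold less in the KO-labelled libraries than in the WT-labelled libraries. Gypc, glycophorin C, averaged 1.19-fold more. The 2 genes past the threshold were 25% of the 8, near the 21.9% of all tested genes. The groups did not overlap for the same 2 genes, a smaller share than the 43.3% of all tested genes whose groups did not overlap. A positive log2 change was fitted for 7 of the 8, with a median over the 8 of 0.19 beside a median over all tested genes of -0.004. In bulk samples, fewer cells of a type and less RNA per cell cannot be told apart.

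The skeleton begins with Sptb, which encodes the erythroid beta-spectrin chain of the lattice (ENSMUSG00000021061, GRCm38 chromosome 12, 76580488 to 76710547, minus strand). Sptb stood at 2402, 2297 and 1166 normalised reads in WT replicates 1 to 3. It stood at 1656, 1676 and 2670.3 in the KO-labelled libraries. The lowest and the highest of the 6 values were WT replicate 3 and Runx1 KO replicate 3, and the groups overlapped. The means were 1955 ± 685 and 2001 ± 580.0 (SD, n = 3). The log2 change, KO-labelled minus WT-labelled libraries on the scale log2(value + 1), was 0.07 with a standard error (SE) of 0.31 and a 95% interval from -0.66 to 0.80 (limma adjusted p = 0.893). Sptb was the member with the smallest fitted change, and its interval still held changes of more than 1.5-fold in each direction.

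Ank1 encodes the ankyrin that ties spectrin to the anion exchanger (ENSMUSG00000031543, chromosome 8, 22974844 to 23150497, plus strand). Its values were 2081, 2752 and 1533 normalised reads in the WT-labelled libraries. In the KO-labelled libraries they were 2002, 2986 and 5158. Runx1 KO replicate 3 stood far above the other 5, while replicate 1 of that group lay inside the range of the WT-labelled libraries. Ank1 had the largest fitted change of the 6 members that did not pass, at 0.60 (SE 0.35, 95% interval from -0.23 to 1.43, limma adjusted p = 0.254).

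Epb41 encodes the protein that binds spectrin to actin and to glycophorin C at the junctional complexes (ENSMUSG00000028906, chromosome 4, 131923413 to 132075321, minus strand). It gave 6117, 7466 and 5719 normalised reads in the WT-labelled libraries. It gave 6509.6, 7096 and 7343 in the KO-labelled libraries, all 3 inside the range of the WT-labelled libraries. The spread was small, with means of 6434 ± 916 and 6983 ± 428 (SD, n = 3), and the interval of the log2 change was the narrowest among the genes that did not pass, from -0.12 to 0.37 around 0.13 (limma adjusted p = 0.424). Epb41 is also used outside the red cell, in many cell types.

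Epb42 encodes a transglutaminase-like protein without enzyme activity that binds the anion exchanger and ankyrin (ENSMUSG00000023216, chromosome 2, 121017891 to 121037072, minus strand), and its upstream run is printed above. It stood at 356, 386 and 223 normalised reads in the WT-labelled libraries. It stood at 263, 301 and 468 in the KO-labelled libraries. As for Sptb, WT replicate 3 was the lowest and Runx1 KO replicate 3 the highest of the 6. The fitted log2 change was 0.09 (SE 0.28, 95% interval from -0.57 to 0.75, limma adjusted p = 0.840).

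Slc4a1 encodes the exchanger of chloride and bicarbonate, the most abundant protein of the red cell membrane and the anchor of the ankyrin complex (ENSMUSG00000006574, chromosome 11, 102348824 to 102366203, minus strand). It stood at 1781, 1435 and 876 normalised reads in the WT-labelled libraries. It stood at 699, 164 and 157 in the KO-labelled libraries. Every KO-labelled library was below every WT-labelled library, but replicate 1 lay much nearer to the lowest WT-labelled library than to the other 2 of its own group. The means were 1364 ± 457 and 339.8 ± 311 (SD, n = 3), so that the SD of the second group was 91.5% of its mean. The log2 change was -2.31 (SE 0.58, 95% interval from -3.68 to -0.95, limma adjusted p = 0.0317). The quasi-likelihood test of edgeR, on the whole read counts recovered from the deposited values, gave an adjusted p of 0.0591. In limma the adjusted p was 0.0806 without WT replicate 1, 0.0893 without WT replicate 2, 0.108 without Runx1 KO replicate 2 and 0.0992 without Runx1 KO replicate 3, with the same direction each time, and 0.00228 without Runx1 KO replicate 1, where the log2 change was -3.02. The summed level of 12 neutrophil granule markers was also lower in every KO-labelled library, at 160080.3 to 222672 normalised reads against 317297 to 415780, and its part in the value of Slc4a1 was not tested.

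Gypc encodes glycophorin C, the sialoglycoprotein that holds the junctional complex to the bilayer and carries the Gerbich antigens (ENSMUSG00000090523, chromosome 18, 32528322 to 32560034, minus strand). It gave 2155, 2221 and 2084 normalised reads in the WT-labelled libraries. It gave 2505, 2446 and 2735 in the KO-labelled libraries, and the groups did not overlap. The libraries of a group lay close together, with means of 2153 ± 68.3 and 2562 ± 153 (SD, n = 3). The log2 change of 0.25 (SE 0.06, 95% interval from 0.10 to 0.40) passed the threshold (limma adjusted p = 0.0350). Leaving out any library but Runx1 KO replicate 1 ended the call: the limma adjusted p was 0.0708, 0.0622 and 0.0959 without WT replicates 1, 2 and 3, and 0.0790 and 0.119 without Runx1 KO replicates 2 and 3, with log2 changes from 0.20 to 0.28.

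Rhag encodes the Rh-associated glycoprotein, which the Rh proteins need to reach the membrane (ENSMUSG00000023926, chromosome 17, 40811126 to 40840754, plus strand). Its values were 927, 1133 and 715 normalised reads in the WT-labelled libraries. They were 877, 1332 and 1863 in the KO-labelled libraries, of which 2 were above every WT-labelled library and replicate 1 was not. The log2 change was 0.51 (SE 0.28, 95% interval from -0.15 to 1.18, limma adjusted p = 0.231). Without Runx1 KO replicate 1 it was 0.79 and passed the threshold (limma adjusted p = 0.0479).

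Kel encodes the Kell blood group glycoprotein, a zinc endopeptidase (ENSMUSG00000029866, chromosome 6, 41686330 to 41704339, minus strand). It stood at 591, 749 and 506 normalised reads in the WT-labelled libraries. It stood at 502, 695 and 1072 in the KO-labelled libraries, so that the lowest and the highest of the 6 values were both in that group. The log2 change was 0.25 (SE 0.28, 95% interval from -0.40 to 0.90, limma adjusted p = 0.551). Kel and Gypc had almost the same fitted change, and the SE of Kel was several times that of Gypc.

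**Figure D1:**
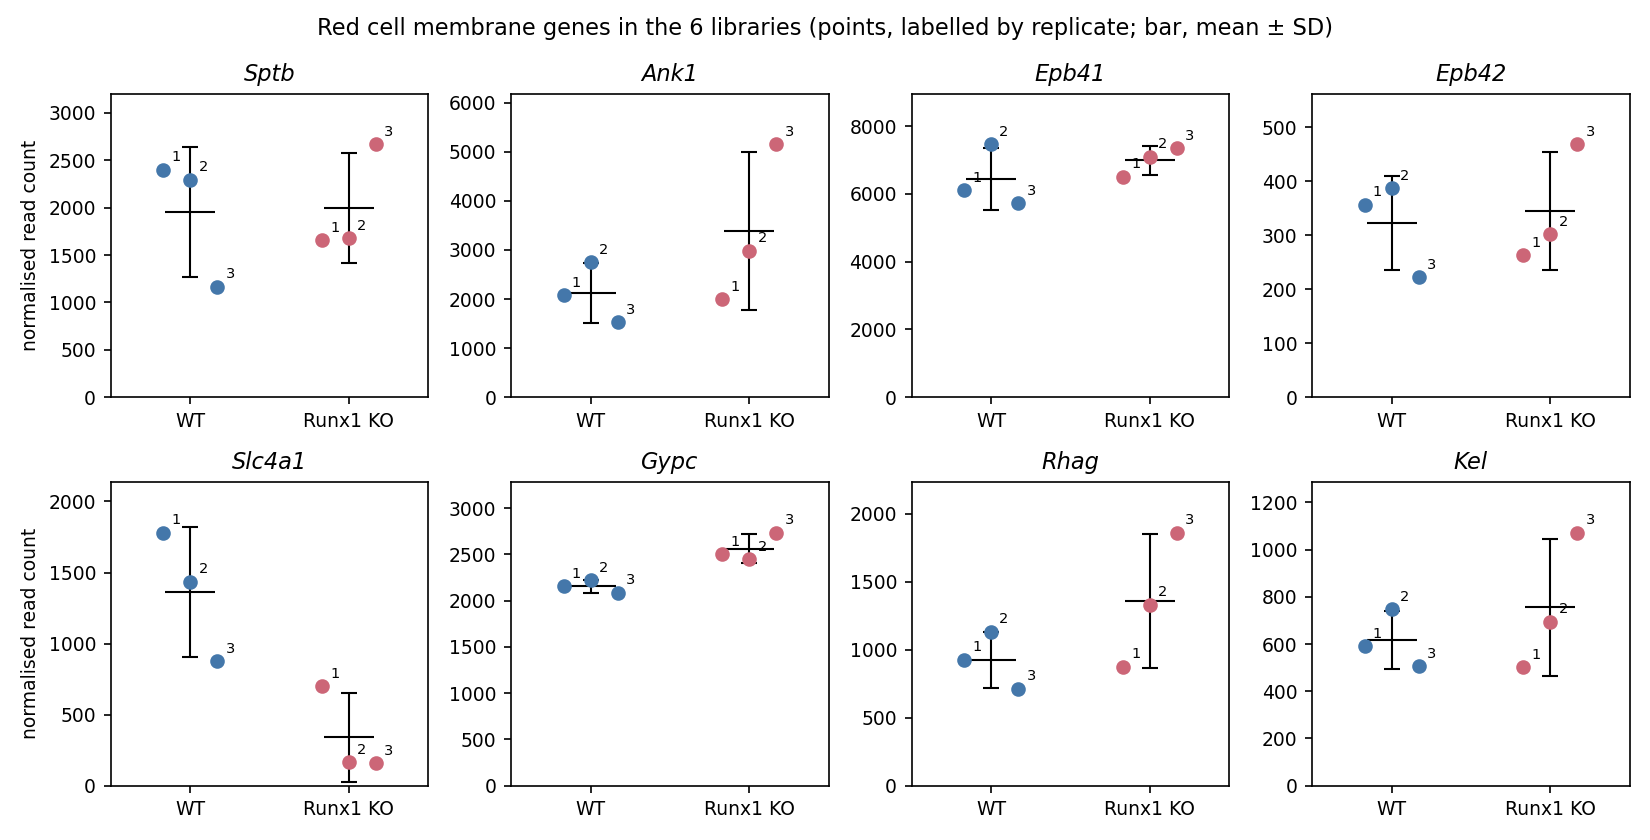
Normalised read count (vertical axes, from 0) of the 8 genes in the 3 WT-labelled and the 3 KO-labelled libraries; points are libraries with their replicate number, the long bar is the mean and the whiskers are 1 SD. The groups do not overlap for Slc4a1 and Gypc and overlap for the other 6.

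**Figure D2:**
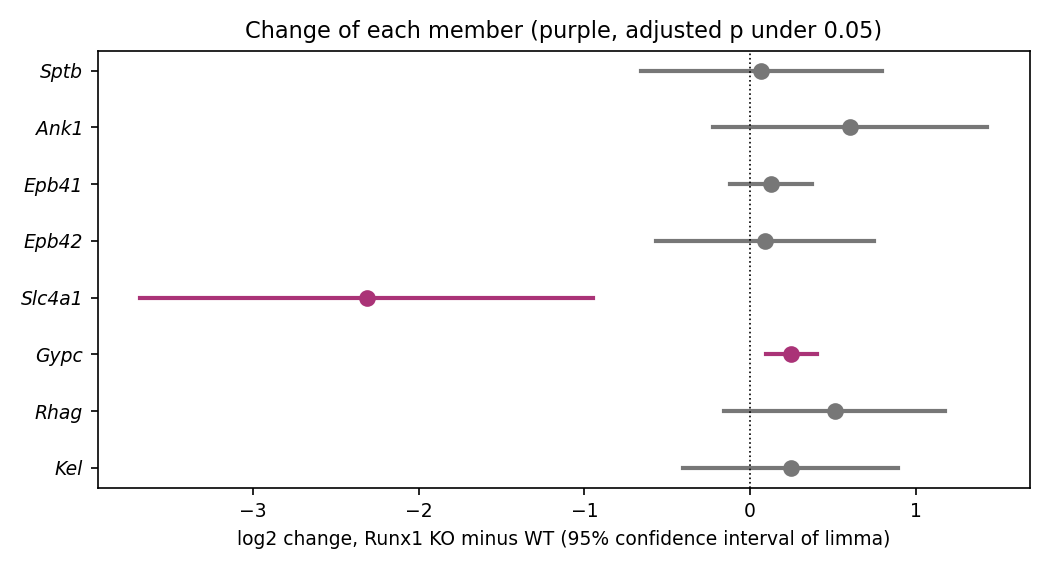
Fitted log2 change of each gene, KO-labelled minus WT-labelled libraries, with the 95% confidence interval of limma; purple marks an adjusted p under 0.05. The interval of Slc4a1 runs from -3.68 to -0.95, that of Gypc from 0.10 to 0.40, and the other 6 include 0.

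The libraries had a common order over most of the genes. WT replicate 3 was the lowest of its group in all 8 genes, and WT replicate 2 was the highest in 6. Among the KO-labelled libraries, replicate 3 was the highest in 7 of the 8 and replicate 1 the lowest in 6. Slc4a1 ran the other way, with replicate 1 the highest and replicate 3 the lowest of that group. Summed over the 8 genes, the level ran from 12822 to 18438 normalised reads in the WT-labelled libraries and from 15013 to 21466 in the KO-labelled libraries, an overlapping range. These sums were 0.0614% and 0.0725% of all normalised reads of the groups.

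Per kilobase of exon, Gypc was the most abundant of the 8 in both groups, with means of 924 normalised reads per kb in the WT-labelled libraries and 1099 in the KO-labelled libraries. In the WT-labelled libraries Epb41 (404 per kb) and Rhag (395) followed. The per-kb values of these 2 genes overlapped between libraries, and their order is not beyond their spread. Slc4a1 averaged 279 per kb and Kel 222 in the WT-labelled libraries, again with overlapping values. Sptb (161) and Ank1 (157) also had overlapping values, and Epb42 was the lowest at 59.4. In the KO-labelled libraries, Slc4a1 averaged 69.5 per kb, next to Epb42 at 63.5 per kb, and the values of the pair overlapped. The other means in that group were 580 for Rhag, 438 for Epb41, 273 for Kel and 165 for Sptb, with Ank1 between the last pair. The exon lengths used ran from 2331 bases for Gypc to 15942 for Epb41 and take in all annotated exons, so a gene with many unused exons is understated. Among the WT-labelled libraries only Gypc, above all others, and Epb42, below all others, were apart from their neighbours in this order by more than the spread of the libraries. Among the KO-labelled libraries, Gypc was apart from Rhag and Epb41 from Kel, and the other neighbours overlapped.

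The level of Slc4a1 relative to its partners was measured within each library as reads of Slc4a1 per 100 reads of the partner, which the size factor does not touch. Slc4a1 had been singled out with its values known, so these ratios describe the libraries. Against Ank1, which holds the exchanger to the skeleton, Slc4a1 gave 85.6, 52.1 and 57.1 reads per 100 in the WT-labelled libraries. It gave 34.9, 5.48 and 3.05 in the KO-labelled libraries. Against Epb42 the figures were 500.0, 371 and 394 reads per 100 in the WT-labelled libraries and 266, 54.3 and 33.5 in the KO-labelled libraries. Against Rhag they were 192, 127 and 123, and then 79.7, 12.3 and 8.44. In each of these ratios replicate 1 was the KO-labelled library nearest to the WT-labelled ones, and the other 2 stood far below. The mean log2 ratio of Slc4a1 to each of the 7 other genes was lower in the KO-labelled libraries, with differences from -2.92 to -2.39. All 7 ratios share the reads of Slc4a1, and no test of them is given.

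Profiles were compared as the root-mean-square difference of log2(value + 1), each gene centred on its mean, over the 6 libraries and among the 12268 tested genes with a mean of at least 50 normalised reads. The 5 genes nearest to Slc4a1 were Ltf (0.205), Lcn2 (0.219), Orm1 (0.225), Ifnlr1 (0.266) and Ngp (0.285). Ltf encodes lactoferrin, Lcn2 neutrophil gelatinase-associated lipocalin and Ngp neutrophilic granule protein, all granule proteins of neutrophils. Orm1 encodes an acute-phase plasma protein and Ifnlr1 a receptor chain for interferon lambda. Ltf stood at 72796, 54263 and 46436 normalised reads in the WT-labelled libraries and at 23247, 7105 and 6219 in the KO-labelled libraries. Like Slc4a1, it was highest in WT replicate 1 and held a middle value in Runx1 KO replicate 1.

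The globin genes and Alas2, the enzyme of the first step of erythroid haem synthesis, were also lower, but ranked farther from Slc4a1. Hbb-bt was 83rd at 0.538, Hba-a2 117th, Hbb-bs 131st, Hba-a1 145th and Alas2 195th at 0.671. Hbb-bs stood at 2879.8, 6052 and 3489 normalised reads in the WT-labelled libraries and at 1062, 537 and 557 in the KO-labelled libraries. It was highest in WT replicate 2, where Slc4a1 was highest in WT replicate 1. The 7 other members lay at 1.46 to 1.82 from Slc4a1, Epb41 nearest and Ank1 farthest, at ranks 8344 and 11865.

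**Figure D3:**
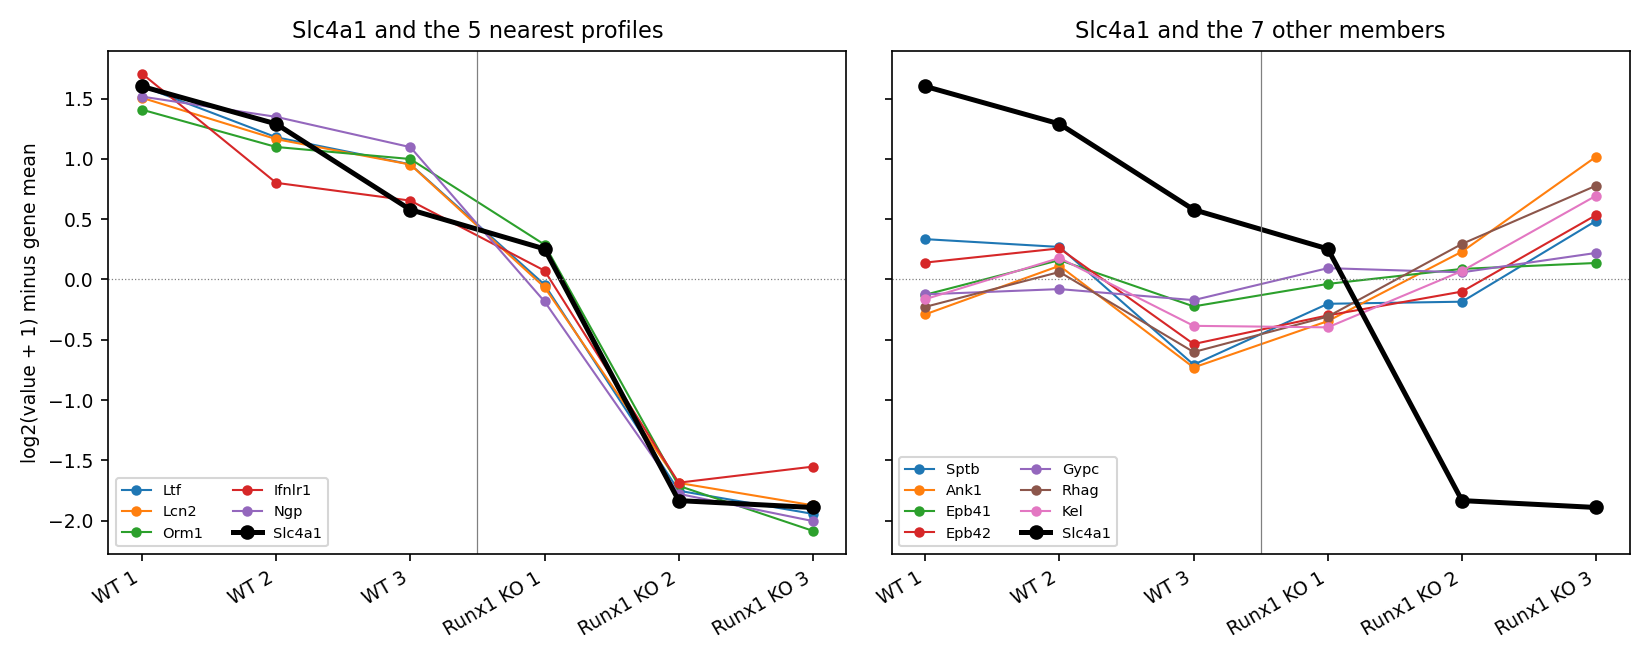
Centred log2(value + 1) over the 6 libraries (horizontal axis) for Slc4a1 in black with its 5 nearest genes on the left and with the 7 other members on the right; lines only join the libraries of a gene. Slc4a1 and the 5 nearest genes fall to between -1.5 and -2.1 in Runx1 KO replicates 2 and 3, where Ank1, Rhag and Kel are above 0.

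Among the other 7 genes the distances were smaller, from 0.119 to 0.454, and they fell into a few close pairs. Sptb and Epb42 were 0.120 apart, and Epb42 was the nearest of all 12268 ranked genes to Sptb. Ank1 and Rhag were 0.120 apart, with Rhag at rank 7 from Ank1 and Ank1 at rank 11 from Rhag, and Rhag and Kel were 0.147 apart. Gypc and Epb41 were 0.119 apart, but Gypc was only at rank 1214 from Epb41 and Epb41 at rank 1852 from Gypc. The nearest genes to Ank1 were Slc25a21 (0.0744), Slc38a5 (0.0986) and Ermap (0.1004). Those nearest to Kel were Tspan33 (0.0642) and Mmp14 (0.0646), and the nearest to Rhag was Ppm1l (0.0518). These neighbours of members other than Slc4a1 were looked up after the values had been seen. The 6 libraries of a profile share their depth and their group, and the distances carry no test.

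The other genes of the membrane skeleton and its linkers, 12 in the list, did not move as 1 block. Tpm1 and Stom rose, Add3, Actb and Tpm3 fell and 7 did not pass, with a median log2 change of -0.23. Counts of this list and of each list that follows are to be set against the 21.9% of all tested genes past the threshold. Add3 encodes gamma-adducin, a cap of actin filaments found in many tissues, and averaged 4503 ± 786 normalised reads in the WT-labelled libraries and 2319 ± 249.9 in the KO-labelled libraries (SD, n = 3). Its log2 change was -0.95 (limma adjusted p = 0.00488). Actb fell by 0.50 and Tpm3, a tropomyosin, fell by 0.42 on the log2 scale (limma adjusted p = 0.00641 and 0.0122). The rises were small, at 0.35 for Tpm1, another tropomyosin, and 0.32 for Stom, stomatin (limma adjusted p = 0.0103 and 0.0399).

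Add2, the erythroid adducin, gave 0.10 (adjusted p = 0.849) and Dmtn, dematin, gave -0.56 (adjusted p = 0.101) in limma. In limma, 1 gene rather than 2 was higher when WT replicate 1, WT replicate 3, Runx1 KO replicate 2 or Runx1 KO replicate 3 was left out, while 3 or 4 were lower each time.

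Of the other red cell surface and blood group genes, 23 in the list, 21 were tested, 5 rose, 1 fell and 15 did not pass, with a median log2 change of 0.39. Over all tested genes 10.6% passed the threshold as higher and 11.3% as lower. Icam4 is not in the listed genes and Abcb6 was left out by the filter. Slc14a1, the urea transporter of the Kidd antigens, rose from 1443, 1516 and 1542 normalised reads in the WT-labelled libraries to 2543, 2474 and 2758 in the KO-labelled libraries. Its log2 change was 0.79 (limma adjusted p = 0.00122), with no overlap. Aqp1, the water channel of the Colton antigens, rose by 0.99 (adjusted p = 0.0152), Cd59a, an inhibitor of complement, by 1.14 (adjusted p = 0.00325), Art4, the Dombrock ADP-ribosyltransferase, by 0.79 (adjusted p = 0.0228) and Kcnn4, the calcium-gated potassium channel, by 0.41 (adjusted p = 0.0456), all in limma. Ackr1, the Duffy chemokine receptor, fell by 1.57 from a low level of 24.3 ± 10.6 normalised reads (SD, n = 3; limma adjusted p = 0.0490, edgeR adjusted p = 0.0515).

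Of the partners of the members on the surface, Rhd and Xk did not pass. Rhd, the Rh protein that travels with the product of Rhag, stood at 895, 1206 and 608 normalised reads in the WT-labelled libraries and at 876, 1204 and 1675 in the KO-labelled libraries (log2 change 0.48, limma adjusted p = 0.292). Xk, which is joined to the Kell protein by a disulphide bond, gave 0.39 (limma adjusted p = 0.141). The number of genes higher in this list moved from 5 to 8 without Runx1 KO replicate 1, to 3 without WT replicate 3 and to 2 without Runx1 KO replicate 2. The number lower in limma was 1 without WT replicate 2 and 0 without any 1 of the other 5 libraries.

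The relatives of these genes that serve other cell types, 17 in the list, gave 2 higher, 3 lower and 7 not past the threshold among the 12 tested. Epb41l1 rose from 147 ± 16.5 to 343 ± 12.5 normalised reads (SD, n = 3; log2 change 1.22, limma adjusted p = 0.00209). Ank2 fell by 2.46 from a mean of 21.0 normalised reads (limma adjusted p = 0.0191). Sptan1, the alpha-spectrin of nucleated cells, fell by 0.71 and Slc4a2, the widely used anion exchanger, by 0.22 (limma adjusted p = 0.0466 for both, edgeR adjusted p = 0.0647 and 0.0566). In edgeR 1 gene of the list was higher and 1 lower. Slc4a2 averaged 1452 ± 48.5 and 1248 ± 42.9 normalised reads (SD, n = 3). Ank3, Epb41l4a, Slc4a3 and Mme were not tested and Rhbg is not in the listed genes. Single libraries decided most of these counts: without WT replicate 2 or 3 none was lower, and without WT replicate 1, Runx1 KO replicate 1 or Runx1 KO replicate 3 only 1 was lower, while 1 rather than 2 were higher without WT replicate 1, WT replicate 2, Runx1 KO replicate 2 or Runx1 KO replicate 3.

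**Figure D4:**
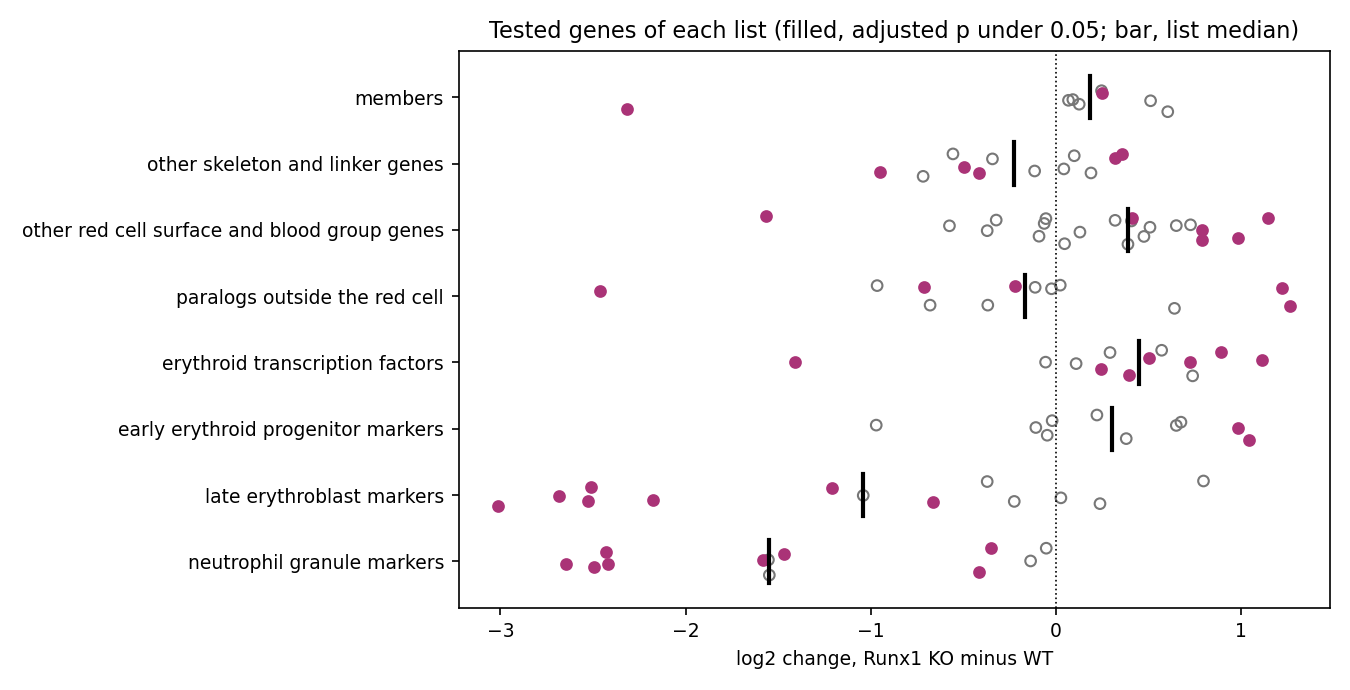
Fitted log2 change, KO-labelled minus WT-labelled libraries, of the tested genes of each list; filled points have an adjusted p under 0.05 in limma and the black bar is the median of the list. Of the 8 members, 7 lie between 0.07 and 0.60 and Slc4a1 at -2.31, and the median of the late erythroblast markers is -1.04.

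The erythroid transcription factors, 12 in the list, gave 6 higher, 1 lower and 5 not past the threshold, with a median of 0.45. Gfi1b rose by 1.11, Zfpm1, the partner of GATA1, by 0.89, Tal1 by 0.72, Lmo2 by 0.50, Ldb1 by 0.40 and Lyl1 by 0.24 on the log2 scale (limma adjusted p from 0.00288 to 0.0188). E2f2, which acts in the last divisions of erythroblasts, fell by 1.41 (limma adjusted p = 0.00328). Gata1 stood at 1399, 1839.5 and 1517 normalised reads in the WT-labelled libraries and at 1917, 2187 and 3054 in the KO-labelled libraries. Its groups did not overlap, and its log2 change of 0.57 did not pass (limma adjusted p = 0.0628). Klf1 gave 0.74 (limma adjusted p = 0.0816). The number higher was 9 without Runx1 KO replicate 1 and in DESeq2, and 3 without Runx1 KO replicate 2.

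Markers of stages and of other cells stand here beside the members, each count to be set against the 21.9% of all tested genes past the threshold. Of the 10 early erythroid markers, 2 rose (Aqp1 and Cnrip1) and 8 did not pass, with a median log2 change of 0.30. Without Runx1 KO replicate 3 the number was 1 and without Runx1 KO replicate 2 it was 0 in limma. Their summed level ran from 37149 to 52181 normalised reads in the WT-labelled libraries and from 42283 to 70140.1 in the KO-labelled libraries. Of the 13 tested of 14 late erythroblast markers, 7 fell and 6 did not pass, with a median of -1.04. A positive log2 change was fitted for 3 of the 13, the largest at 0.80, and none of these passed. Among the 7, the log2 changes were -3.01 for Alas2, -2.68 for Hbb-bt, -2.53 for Hbb-bs, -2.51 for Hba-a2, -2.18 for Hba-a1 and -0.66 for Bpgm (limma adjusted p from 0.00356 to 0.0452). The copies of the globin genes are near-identical, so the split of reads within a pair is uncertain. The late list summed to between 20324 and 29816 normalised reads in the WT-labelled libraries and to between 12683 and 14428 in the KO-labelled libraries. In limma 5 of this list fell without WT replicate 2 or without any 1 of the KO-labelled libraries. Without WT replicate 1 or Runx1 KO replicate 1, 1 of the list rose. Slc4a1 fell, as the globins and Alas2 did, and the other 7 members did not pass in that direction.

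Of the 12 neutrophil granule markers 8 fell and 4 did not pass, with a median of -1.55, and 4 fell without Runx1 KO replicate 2. Their summed level ran from 317297 to 415780 normalised reads in the WT-labelled libraries and from 160080.3 to 222672 in the KO-labelled libraries. Of the 12 stem and multipotent progenitor markers 8 rose and 4 did not pass (median 0.78), with sums from 22135 to 26543 and from 34076 to 39275, and 4 rose without Runx1 KO replicate 2. Of the 10 tested of 12 megakaryocyte and platelet markers 7 rose and 3 did not pass (median 1.01), with sums from 4620.4 to 5374 and from 7097 to 9897. In limma 5 of them rose without WT replicate 1, WT replicate 2 or Runx1 KO replicate 2. Without WT replicate 3 the number was 6, and without Runx1 KO replicate 1 it was 6 with 1 lower. Mast cell and basophil markers gave 1 higher and 6 lower of 8 tested (median -3.06), and 2 higher without Runx1 KO replicate 3. The number lower was 5 without WT replicate 1 and 4 without WT replicate 2, WT replicate 3 or Runx1 KO replicate 2. Of 12 monocyte and macrophage markers 3 fell (median -0.49), and 5 without WT replicate 1 or Runx1 KO replicate 1. Only 2 of them fell without WT replicate 2, WT replicate 3 or Runx1 KO replicate 3. Of 10 B-lymphoid markers 7 fell (median -3.99), with 4 without WT replicate 3, 2 without Runx1 KO replicate 2 and 3 without Runx1 KO replicate 3. Of 10 T-lymphoid markers, Lat rose (median -1.37), and 8 fell when Runx1 KO replicate 1 was left out. B-lymphoid markers summed to 33295 normalised reads in WT replicate 1 and to 7574 and 12243 in the other WT-labelled libraries. Among all markers only Gp6 and Tpsb2 were at 0 in any library. The part of these other cells in the values of the members was not tested.

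**Figure D5:**
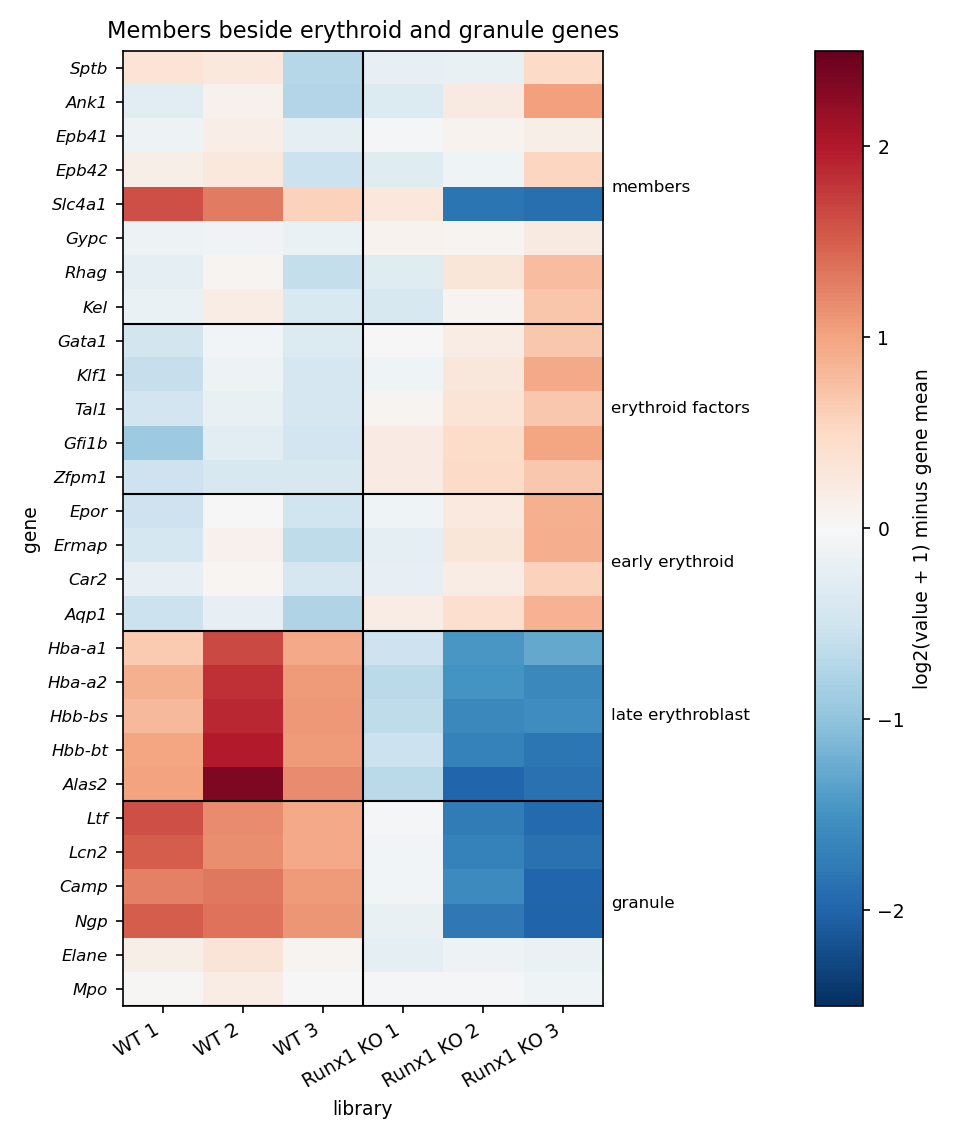
Centred log2(value + 1) (colour scale, red above and blue below the mean of the gene) for the 8 members and selected erythroid and granule genes in the 6 libraries. In the full lists 2 of 12 erythroid transcription factors and 4 of 10 early erythroid markers had a negative log2 change. A positive one was fitted for 3 of the 13 tested late erythroblast markers. None of these genes is shown. Slc4a1 is blue in Runx1 KO replicates 2 and 3 with the globin genes and Ltf, Lcn2, Camp and Ngp, while Ank1, Rhag, Kel, Gata1, Klf1 and Epor are red in replicate 3.

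Some reads of the members could belong to overlapping genes, since whether counting used the strand is not given in the sources used here. An antisense gene, Gm15816, shares 862 exonic bases with Ank1 and had at most 10 reads in a library. Gm10300 shares 142 exonic bases with Epb41 on the other strand and had at most 7 reads, and Plekhg3 shares 1 base with Sptb. Slc4a1, Gypc, Rhag and Epb42 had no overlapping gene in the annotation. The lowest read count of any member in a library was 158, for Slc4a1, so that all 8 stood well above the floor of 3 reads in each library.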

How the data were processed

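RNA of c-Kit+ bone marrow cells was sequenced in 6 libraries, 3 per genotype (WT and Runx1 KO). Poly-A selected, strand-specific libraries were run as 1 pool on a HiSeq2500, per the labels' protocols. HISAT2, HTSeq 0.9.1 and the build mm10 or GRCm38 are named in the submitters' processing notes, without their roles. The deposited values are a signal made by the authors from read counts divided by a size factor per library, as worked out from the values: 100% were whole multiples of the smallest step within a tolerance of 0.001, and these multiples are called recovered reads. The genes deposited have at least 10 reads over the 6 libraries.

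Symbols were found for 20077 of 20097 identifiers, and 20090 were found in GENCODE M21 on GRCm38, from which positions and exon lengths were taken. Sequences come from RefSeq (GRCm38.p6), which held 5 of the 8 genes in 7 windows. Genes entered by filterByExpr of edgeR 4.0.16 (minimum count 10, minimum total 15). Values were taken to log2(value + 1), which understates changes of low genes, and limma 3.58.1 (lmFit, eBayes with trend, group only, two-sided, Benjamini-Hochberg over 15410 genes, threshold 0.05) was run in R 4.3.3. The fit was tested on simulated data. Alternatives were pseudocounts of 0.5 and 5, no filter, a mean of at least 25, TMM and library totals as scaling, a replicate block, edgeR and DESeq2 1.42.0 on recovered reads, and each library left out in turn.

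The 8 genes and all lists were chosen with earlier results of these data known. Genes named were the 8, the genes of each pathway list past the threshold or not tested, the 5 profiles nearest to Slc4a1, and Runx1. Some genes counted in the lists are not reported here by name. Add2, Dmtn, Rhd, Xk, Gata1 and Klf1, the cell type markers, and the neighbours of other members were added after their values were seen. The counts of each list with a library left out were added then too. A count of reads is not a count of molecules, so the floor of 3 reads covers counting error only.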

Additional observations from a re-analysis of the deposited data

How the results depend on the processing

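With all libraries kept, the 8 genes gave 80 values over 10 alternatives, of which 78 kept their direction and their side of the threshold. The number of the 8 past the threshold was 1 in place of 2 in limma with the replicate block, where Gypc had an adjusted p of 0.05003, and 1 in edgeR with TMM, where Slc4a1 had 0.0591. With each library left out in turn it ran from 0 to 3, and of 48 values 33 were unchanged in call and direction, 9 lost the call, 1 gained it and 5 changed sign. Sptb ran from -0.27 to 0.25 (-0.27 without WT replicate 3 and -0.16 without Runx1 KO replicate 3), Epb42 from -0.15 to 0.26 (-0.15 without either of these) and Kel from -0.0401 without Runx1 KO replicate 3 to 0.51. The cause was not tested.

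Over all genes the 3370 calls became 3187 to 3908 under the 10 alternatives, and 1367 to 3597 with a library left out (632 to 1634 higher, 735 to 1963 lower). Scaling to library totals gave 2383 higher and 1372 lower, beside 1631 and 1739, and moved the median of all genes to 0.08.

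The replicate numbers were not taken as pairs, because the deviations of same-numbered libraries correlated at 0.29, 0.13 and -0.01. WT replicate 2 correlated best with Runx1 KO replicate 3, at 0.23. With the replicate block the calls were 3843 in limma and 3690 in edgeR, beside 3370 and 3263 without it. Among the erythroid transcription factors 9 rather than 6 were higher in limma with the replicate block, where Gata1 had an adjusted p of 0.0383 and Klf1 0.0419, and Slc4a2 lost its call at 0.0720. With 3 libraries a group, the intervals of Sptb, Ank1, Epb42, Rhag and Kel hold changes of more than 1.5-fold.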
